A study of Rattus norvegicus with 8 samples.

Results

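De novo lipogenesis is the making of fatty acids from the carbon of sugar, and 10 of its enzymes and regulators were followed in skin of streptozotocin-treated (STZ) and sham-treated rats. The 10 genes were Acly, Acaca, Acacb, Me1, Fasn, Elovl6, Scd, Thrsp, Srebf1 and Mlxipl, each matched to its array probes by RefSeq accession. Of the 10, 7 had a probe, among 13903 genes named on the array. These 7 genes had 8 probes, of which 2 were for Acly, and all 8 were well above background in all 8 samples. No probe was matched to Fasn (the fatty acid synthase), Srebf1 or Mlxipl (the regulators SREBP and ChREBP), and these are not analysed here.

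The 8 samples, 4 labelled STZ and 4 labelled sham, were full-thickness skin from Sprague-Dawley males. STZ rats received 60 mg/kg streptozotocin, which destroys pancreatic beta cells and so lowers insulin, into the peritoneum at 4 weeks of age, and sham rats received the sodium citrate solution. Skin was harvested at 8 weeks of age, 4 weeks after treatment. The labels also speak of a cutaneous wound, and they do not settle whether the profiled skin was wounded. Neither blood glucose nor the number of rats behind a sample is given in the sources used here.

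The 8 samples were 4 arrays that had each been scanned 2 times. Replicates 1 and 3 of a group shared an array position on the slide, as did replicates 2 and 4. The SD of the log2 difference over the tested probes was 0.0979 to 0.140 within these 4 pairs, against 0.893 to 1.17 within a group otherwise. Scans of 1 array were therefore averaged, and every comparison set 2 STZ arrays against 2 sham arrays (n = 2 each). The first array of a group is that of replicates 1 and 3 and the second that of replicates 2 and 4, and paired values below follow this order. The STZ arrays lay at positions 1 and 2 and the sham arrays at positions 3 and 4, so that group and position cannot be told apart. The 75th percentile of spot intensity was 1481 and 1496 in scans of STZ replicates 1 and 3, 606.3 and 623.9 in scans of STZ replicates 2 and 4, and 1138 to 1336 in the sham samples. Between 20266 and 22888 of 24684 probes were above background per sample, and 21527 were tested. Nothing in the labels says that arrays of a group came from separate animals, so p-values measure only the spread between these arrays.

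In this pathway ATP-citrate lyase releases acetyl-CoA from citrate, acetyl-CoA carboxylase turns it into malonyl-CoA, and fatty acid synthase joins these units into palmitate with NADPH from malic enzyme and the pentose phosphate pathway. Elongases and stearoyl-CoA desaturase then lengthen and desaturate the product. Insulin drives the pathway through SREBP, and glucose through ChREBP. In skin, the fat layer below the dermis and the sebaceous glands are its best known sites.

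Sequence upstream of the start site is shown for 4 genes that stood apart in the measurements. Thrsp and Me1 were lower on both STZ arrays, while Scd and Acacb differed most between the STZ arrays. The windows are the 250 bases before the annotated start, from RefSeq on the rat assembly GRCr8, written 5′ to 3′ on the strand of the gene, which is the minus strand for all 4. They lie at chr1:161138965-161139214 (Thrsp), chr8:96540245-96540494 (Me1), chr1:253231732-253231981 (Scd) and chr12:48138215-48138464 (Acacb). Capitals mark a CCAAT box (CCAAT) or a GC box (GGGCGG), read on either strand.
Thrsp: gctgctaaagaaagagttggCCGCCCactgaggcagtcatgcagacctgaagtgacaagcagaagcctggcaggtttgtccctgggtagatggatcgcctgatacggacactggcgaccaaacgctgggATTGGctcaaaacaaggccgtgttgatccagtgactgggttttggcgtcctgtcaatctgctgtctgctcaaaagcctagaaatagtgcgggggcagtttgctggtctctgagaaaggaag
Me1: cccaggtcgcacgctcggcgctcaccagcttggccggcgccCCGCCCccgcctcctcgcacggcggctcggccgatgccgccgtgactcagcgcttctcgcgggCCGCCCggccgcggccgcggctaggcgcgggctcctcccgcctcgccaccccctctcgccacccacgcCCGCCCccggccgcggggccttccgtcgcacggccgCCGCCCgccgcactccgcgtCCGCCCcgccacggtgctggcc
Scd: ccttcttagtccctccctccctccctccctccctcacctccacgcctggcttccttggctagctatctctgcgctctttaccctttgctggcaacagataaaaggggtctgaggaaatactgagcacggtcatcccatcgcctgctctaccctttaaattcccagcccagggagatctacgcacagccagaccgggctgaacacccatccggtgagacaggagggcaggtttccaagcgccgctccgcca
Acacb: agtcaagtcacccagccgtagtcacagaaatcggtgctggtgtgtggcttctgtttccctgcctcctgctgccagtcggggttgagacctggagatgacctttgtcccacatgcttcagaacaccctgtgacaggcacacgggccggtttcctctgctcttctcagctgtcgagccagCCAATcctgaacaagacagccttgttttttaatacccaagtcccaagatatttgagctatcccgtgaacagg

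The search covered both strands for the E-box CACGTG, which USF factors bind, the sterol regulatory element TCACNCCAC, the TATA box TATAAA, and the CCAAT and GC boxes. No 2 of the sites it found in the 4 windows overlapped. Me1 held 5 GC boxes, the Thrsp window 1 GC box and 1 CCAAT box, Acacb 1 CCAAT box, and the Scd window none of the 5 motifs. Neither the E-box nor the sterol regulatory element occurred in any of the 9 windows that the RefSeq table gave for 7 of the 10 genes. Of all 33469 rat windows of this length, 5.59% held an E-box, 0.974% a sterol regulatory element, 34% a CCAAT box, 30.5% a GC box and 12.9% a TATA box. A match is a description of letters, and an absent one says nothing about the factor.

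The comparison asked how far the lipogenic genes of skin differed between STZ and sham rats. Thrsp was far lower on both STZ arrays, and Me1 was lower on both by a smaller step. Acly, Acaca, Acacb, Elovl6 and Scd overlapped between the groups. These 5 were above the sham mean on one STZ array and below it on the other. Levels below are log2 of the processed intensity over the 75th percentile of the array, and are not comparable between probes. Changes are STZ minus sham, given relative to the median change of all tested probes, which was 0.23 on this scale. A p refers to the change before that median is taken off. In bulk tissue, fewer cells of a type and less RNA per cell cannot be told apart.

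Thrsp (NM_012703) encodes a small nuclear protein that thyroid hormone, insulin and carbohydrate induce in liver and fat, and that promotes expression of lipogenic enzymes. Its level was 0.50 and 0.54 on the STZ arrays, against 3.50 and 3.87 on the sham arrays. The STZ arrays lay close together and far below both sham arrays. The second STZ value rests on the scan of replicate 2 alone, because the spot was marked as non-uniform in the scan of replicate 4, and with that spot kept the relative change given next was −3.61. Its processed intensities were 2094 and 2103 in STZ replicates 1 and 3, 882 in STZ replicate 2 and 504.2 in the flagged scan of STZ replicate 4. They were 12840, 19250, 13270 and 19390 in sham replicates 1 to 4. The levels averaged 0.52 ± 0.032 in STZ and 3.69 ± 0.27 in sham skin (SD, n = 2 arrays each). The relative log2 change was −3.40 (SE 0.43, 95% interval −4.50 to −2.29), a 10.5-fold lower intensity. That was rank 122 of 21527 probes by p. Its unadjusted p from limma's moderated test across all probes was 0.000718 and its adjusted p 0.127, so Thrsp did not pass after Benjamini-Hochberg adjustment. With each array centred on its median in place of the 75th percentile, the adjusted limma p was 0.00997. It was 0.103 after quantile normalization, 0.0853 after normexp with quantile normalization and 0.237 without the filter. Among the other alternatives, Thrsp passed only with the 8 scans treated as separate arrays.

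Me1 (NM_012600), the cytosolic malic enzyme, makes NADPH for fatty acid synthesis. Its level was 2.37 and 1.26 on the STZ arrays, against 2.86 and 2.996 on the sham arrays. Both STZ arrays were below both sham arrays, and the STZ arrays differed from each other by more than the first of them differed from sham. The means were 1.82 ± 0.79 in STZ and 2.93 ± 0.10 in sham skin (SD, n = 2 each). The relative change was −1.34 (SE 0.54, 95% interval −2.74 to 0.060) with an adjusted limma p of 0.549, which did not pass. With the array of STZ replicates 2 and 4 left out the change was −0.58, and with that of STZ replicates 1 and 3 left out it was −2.05.

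**Figure D1:**
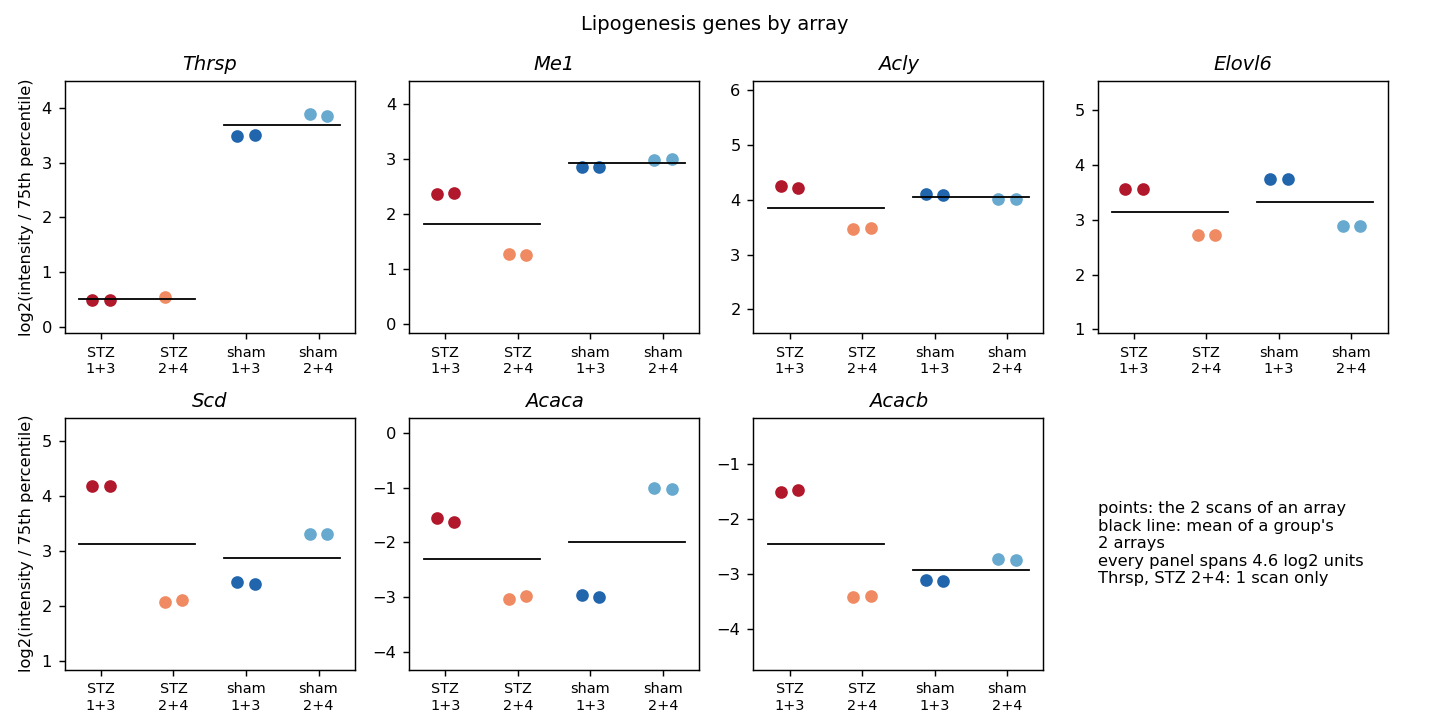
Level of each gene by array, as log2 of the processed intensity over the 75th percentile of the array; the points are the scans of each array and the black lines the mean of the 2 arrays of a group, with STZ left of sham. Thrsp and Me1 lie lower on both STZ arrays, while the groups overlap in the other 5 genes.

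Acly, the ATP-citrate lyase, supplies the cytosolic acetyl-CoA from which the chain is built. Its brighter probe (NM_016987) read 4.24 and 3.48 on the STZ arrays, against 4.10 and 4.02 on the sham arrays. The other probe (NM_001111095) read 4.13 and 3.35 on the STZ arrays, against 4.03 and 3.94 on the sham arrays. Both probes placed the first STZ array just above sham and the second below it, so the groups overlapped. The relative changes were −0.42 (SE 0.48, 95% interval −1.65 to 0.80, limma, adjusted p = 0.890) and −0.47 (SE 0.48, limma, adjusted p = 0.860).

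Acaca and Acacb encode the acetyl-CoA carboxylases. The first makes the malonyl-CoA used for synthesis, and the second, at the mitochondrial surface, makes the malonyl-CoA that restrains fatty acid oxidation. Acaca (NM_022193) read −1.59 and −3.01 on the STZ arrays, against −2.98 and −1.02 on the sham arrays. The arrays of each group disagreed by more than the groups did. Its relative change was −0.53 (SE 0.87, 95% interval −2.77 to 1.70, limma, adjusted p = 0.909). Acacb (NM_053922) read −1.49 and −3.41 on the STZ arrays, against −3.12 and −2.73 on the sham arrays. Here the sham arrays lay close together, with the first STZ array above them and the second below. The relative change was 0.25 (SE 0.75, 95% interval −1.67 to 2.16, limma, adjusted p = 0.820).

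Elovl6, the elongase that extends palmitate to stearate, and Scd, the desaturase that turns stearate into oleate, act on the product of the synthase. Elovl6 (NM_134383) read 3.56 and 2.72 on the STZ arrays, against 3.74 and 2.89 on the sham arrays. Its arrays formed a high and a low pair, with 1 array of each group in each. The relative change was −0.41 (SE 0.56, 95% interval −1.85 to 1.03, limma, adjusted p = 0.918). Scd (NM_139192) read 4.19 and 2.08 on the STZ arrays, against 2.42 and 3.31 on the sham arrays. The first STZ array was the highest of the 4 and the second the lowest. The relative change was 0.0425 (SE 0.83, 95% interval −2.10 to 2.18, limma, adjusted p = 0.918). Its paralogue Scd2 was highest on the first STZ array too, at 4.53 and 3.34 on the STZ arrays, against 3.13 and 4.07 on the sham arrays. Cross-hybridisation between the Scd and Scd2 probes was not tested.

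Of the 7 genes, 5 had a relative change below 0, and their median was −0.42, against 0 for all tested probes by construction. After quantile normalization the median of the 7 was −0.087 with 6 of them lower, and after normexp with quantile normalization it was −0.079 with 5 lower. One of the 7, Thrsp, was lower at an unadjusted limma p under 0.05, as were 3.54% of all tested probes. None of the 7 was higher at that threshold, against 7.32% of all probes. None passed after adjustment, nor did any probe on the array (0%), where the smallest adjusted limma p was 0.0761 and 761 probes were lower and 1575 higher without adjustment. Both STZ arrays were below both sham arrays for 2 of the 7, against 22.7% of the probes measured on every array. None of the 7 had both STZ arrays above both sham arrays, against 21.0% of probes. An exact permutation test of 2 arrays against 2 cannot give a p below 0.333.

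With each array centred on its median probe, the array of STZ replicates 2 and 4 was below that of STZ replicates 1 and 3 for 7 of 7, against 44.6% of probes. The difference was −2.31 for Scd, −2.13 for Acacb, −1.63 for Acaca, −1.32 for Me1, −1.04 for Elovl6 and −0.96 for Acly. Thrsp differed least, at −0.16. It was slightly higher on the second STZ array in the 75th percentile scaling (0.50 and 0.54) and after quantile normalization (10.56 and 10.67). The same held after normexp with quantile normalization (10.64 and 10.74). These Thrsp values leave out the flagged scan of STZ replicate 4. That scan read 504.2, below its 75th percentile of 623.9, so the order and the small difference in the 75th percentile scaling depend on leaving it out. The Scd difference stood at the 1.04 percentile of all probes, that of Acacb at the 1.43 percentile and that of Thrsp at the 38.1 percentile. Acacb and Acaca were dim on the second STZ array. Their processed intensities in its scans were 56.5 and 59.1 for Acacb and 73.8 and 78.6 for Acaca, so these 2 differences are less certain. The corresponding differences between the sham arrays ran in both directions, with 1.77 for Acaca, 0.70 for Scd and −1.05 for Elovl6.

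Set against the mean of the sham arrays, 5 of the 7 genes were above it on the first STZ array and below it on the second, a pattern that 13.3% of probes shared. On the first STZ array Acacb was 1.37 and Scd 1.26 above the sham mean. On the second STZ array Acacb was at −0.76 and Scd at −1.05. The median over the 7 genes was 0.17 on the first STZ array and −1.05 on the second, against −0.033 and 0.11 over all tested probes. With the second STZ array left out, the 7 genes had a median change of 0.21 and 2 of them were lower. With the first STZ array left out, the median was −1.17 and 7 were lower. The second STZ array also had the lowest 75th percentile of intensity, 606.3 and 623.9 in its scans. The part of array brightness in these differences was not tested.

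**Figure D2:**
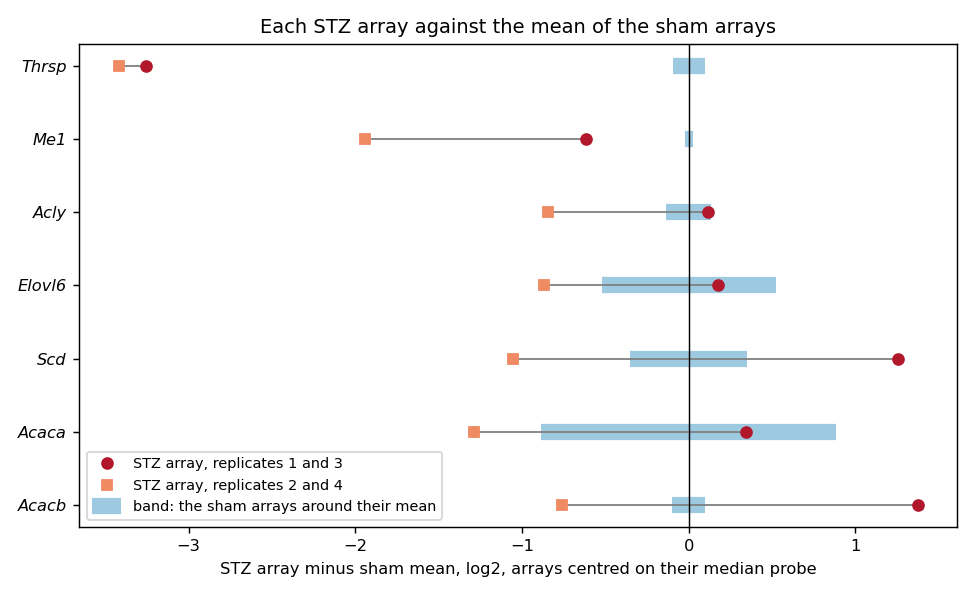
Difference of each STZ array from the mean of the sham arrays (log2, each array centred on its median probe), with circles for STZ replicates 1 and 3, squares for STZ replicates 2 and 4, and a band spanning the 2 sham arrays. With this centring the square lies left of the circle for all 7 genes (for Thrsp the order turns with the scaling), and the circle and the square fall on opposite sides of 0 for 5 of them.

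Cell type markers were read beside these genes, because fat cells and sebaceous glands both make lipid. All 10 tested adipocyte markers of 12 listed had a relative change below 0, with a median of −2.30. Of the 10, 6 were lower at an unadjusted limma p under 0.05, against 3.54% of all tested probes. Lep was at −0.16 with overlapping groups, and its second STZ array was the highest of the 4 arrays. Its probe was well above background in 7 of the 8 samples. Fabp4, a fatty acid carrier of fat cells and among the brightest markers of the list, read 4.96 and 5.76 on the STZ arrays, against 5.87 and 6.35 on the sham arrays. Cfd, the adipokine adipsin, read 4.57 and 5.51 on the STZ arrays, against 6.42 and 5.83 on the sham arrays. For both genes the STZ arrays lay below the sham arrays. Adipoq, the fat cell hormone adiponectin, read 1.76 and 3.37 on the STZ arrays, against 5.29 and 5.48 on the sham arrays. Cidec, a lipid droplet protein, read 0.60 and 1.51 on the STZ arrays, against 5.20 and 5.38 on the sham arrays. These were also below sham on both STZ arrays, by a wider margin. The summed signal of the list, in multiples of the 75th percentile, was 72.2 and 136 on the STZ arrays, against 300.4 and 307.1 on the sham arrays. The summed signal was thus lowest on the first STZ array. Not every marker of the list followed. With arrays centred on their median, Retn was at −2.03 against the sham mean on the first STZ array and −2.27 on the second. Adipoq and Cidec stayed above background in all samples, and the part of fat cell content in the Thrsp and Me1 values was not tested.

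The sebaceous gland markers, 7 tested of 11 listed, had a median change of −0.10, with 5 lower and none past an unadjusted limma p of 0.05. Their summed signal was 59.9 and 32.2 on the STZ arrays, against 48.5 and 31.9 on the sham arrays. Dgat2, the last enzyme of triglyceride synthesis and the brightest marker of the list, read 5.06 and 4.25 on the STZ arrays, against 4.57 and 4.48 on the sham arrays. Acsbg1, an acyl-CoA synthetase, read 3.75 and 3.37 on the STZ arrays, against 4.21 and 2.66 on the sham arrays. Groups overlapped for both. Elovl3, an elongase of sebaceous lipids, read 2.15 and −0.47 on the STZ arrays, against 1.45 and 0.47 on the sham arrays. Awat1, an enzyme of wax ester synthesis, read 2.63 and 0.59 on the STZ arrays, against 1.47 and 0.12 on the sham arrays. Soat1, which esterifies cholesterol, read 1.17 and −1.71 on the STZ arrays, against −1.32 and −0.76 on the sham arrays. These 3 and Dgat2 were highest on the first STZ array, as Scd and Acacb were. Acsbg1 was highest on the first sham array, and Mc5r and Fa2h were lowest on the first STZ array. For Mc5r that order turned with arrays centred on their median. It was then at −0.37 against the sham mean on the first STZ array and −0.54 on the second. Mc5r, a melanocortin receptor, read −3.39 and −3.35 on the STZ arrays, against −3.01 and −3.17 on the sham arrays. Fa2h, a fatty acid hydroxylase, read −3.62 and −2.24 on the STZ arrays, against −2.11 and −3.18 on the sham arrays. The part of sebaceous gland content in the differences between the STZ arrays was not tested. Skeletal muscle markers, whose tissue expresses Acacb, summed to 340.4 and 407.5 on the STZ arrays, against 312.8 and 487.9 on the sham arrays, so the groups overlapped.

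**Figure D3:**
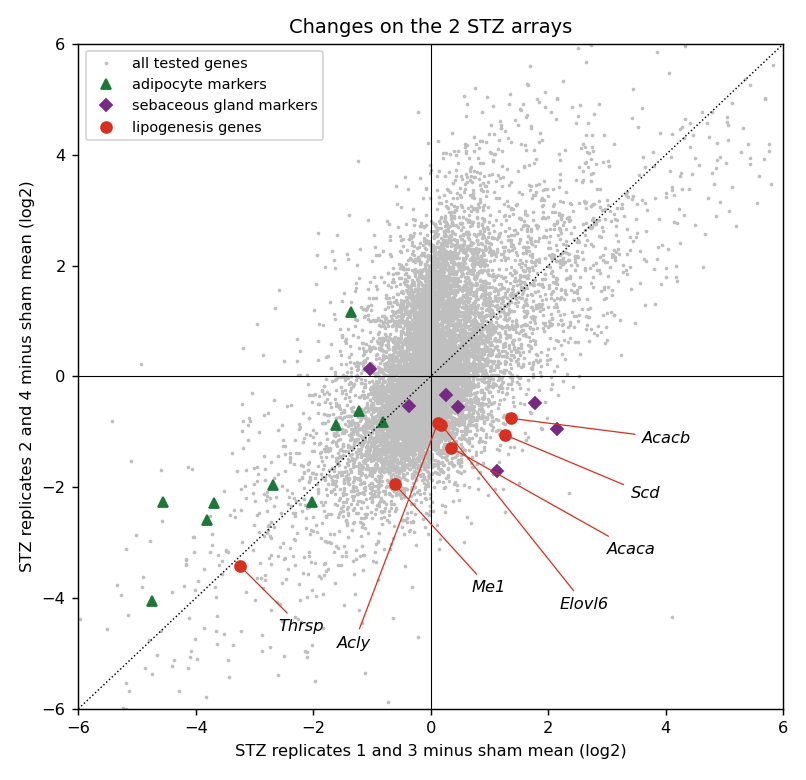
Each of 12598 tested genes by its difference from the sham mean on STZ replicates 1 and 3 (horizontal) and on STZ replicates 2 and 4 (vertical), in log2 with arrays centred on their median; the dotted line marks equal differences, and 78 genes lie outside the axes. Thrsp lies near the line among the adipocyte markers, while Scd and Acacb lie below it, right of 0. Of the 7 sebaceous gland markers, Fa2h lies above the line, at −1.04 and 0.14. The others lie below it, on both sides of 0 on the horizontal axis.

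The other genes of the pathway were read from 6 lists with 62 different tested genes. Of these, 50 had a relative change below 0, against 10763 of all 21527 tested probes. At an unadjusted limma p under 0.05, 5 were lower and 1 was higher, against 3.54% of all tested probes lower and 7.32% higher, and none passed after adjustment. The array of STZ replicates 2 and 4 was below that of replicates 1 and 3 for 52 of the 62, against 44.6% of probes. Quantile normalization moved the median of the 7 lipogenic genes from −0.42 to −0.087. The 6 lists were not read after it, so how far their changes depend on the scaling was not tested.

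In the list of acetyl-CoA and NADPH supply, 10 of 11 tested genes were lower, with a median of −0.55, and none reached an unadjusted limma p of 0.05. Pc, the pyruvate carboxylase that replenishes oxaloacetate for citrate, read 0.95 and 0.46 on the STZ arrays, against 1.77 and 1.83 on the sham arrays. Both STZ arrays were lower, and its relative change was −1.32 (limma, adjusted p = 0.475). Mlycd, which degrades malonyl-CoA, changed by −0.65 and Tkt, a transketolase of the pentose phosphate pathway, by 0.12. Tkt was the 1 gene of the list with a value above 0.

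Fatty acid elongation and desaturation had 10 tested genes, 5 lower and 5 higher, with a median of −0.064. Fads2, the delta-6 desaturase of polyunsaturated fatty acids, read −4.99 and −4.15 on the STZ arrays, against −3.43 and −1.10 on the sham arrays. Both STZ arrays were lower, but the sham arrays were also far apart, and the change of −2.54 had an unadjusted limma p of 0.0479 and an adjusted p of 0.456. Fads2 was also dim on both STZ arrays, so its change is less certain. Fads1, the delta-5 desaturase, changed by −0.96 and Hsd17b12, the ketoacyl reductase of elongation, by 0.40. Hacd3, a dehydratase of the same cycle, changed by 0.15.

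Activation and glycerolipid assembly, the steps that turn fatty acids into triglyceride, had 9 of 10 tested genes lower and a median of −0.62. Of these, 3 genes, Gpd1, Agpat2 and Acsl1, were lower at an unadjusted limma p under 0.05. Gpd1, which makes the glycerol 3-phosphate backbone, read 1.60 and 1.13 on the STZ arrays, against 4.19 and 4.81 on the sham arrays. The groups were far apart, with a change of −3.36 (SE 0.48, limma, adjusted p = 0.145), close to that of Thrsp. Agpat2, an acyltransferase of triglyceride synthesis in fat, read −1.16 and −1.90 on the STZ arrays, against −0.14 and 0.50 on the sham arrays, a change of −1.94. Acsl1, an acyl-CoA synthetase, read 1.58 and 1.74 on the STZ arrays, against 2.88 and 3.26 on the sham arrays, a change of −1.64. The adipocyte markers were lower on the same arrays, and their part in these 3 values was not tested. Acsl3, another synthetase, changed by −1.38.

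Among genes of SREBP processing and lipogenic transcription, 16 of 16 tested were below the median probe, with a list median of −0.44. Their changes ran from −1.43 to −0.10, so some lay close to the median probe. The list was not read after quantile normalization, where the median change taken off was −0.037 in place of 0.23. The list median was 0.032 on the first STZ array and −1.02 on the second, against −0.033 and 0.11 over all tested probes. Thra, the thyroid hormone receptor alpha, read 2.44 and 2.05 on the STZ arrays, against 3.66 and 3.24 on the sham arrays. Both STZ arrays were lower, with a change of −1.43 (limma, adjusted p = 0.443, with an unadjusted p of 0.0436). Thrb, the beta receptor, changed by −1.17, Insig2, which holds SREBP in the endoplasmic reticulum, by −1.41 and Mbtps1, the protease that first cleaves it, by −0.73. None of these last 3 reached an unadjusted limma p of 0.05. Thrb was dim, at −3.46 and −4.14 on the STZ arrays, against −3.23 and −2.49 on the sham arrays, so its change is less certain.

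Carboxylase control covered kinases that inactivate acetyl-CoA carboxylase and Mid1ip1, a paralogue of Thrsp that promotes carboxylase polymerisation. Of its 6 genes, 5 were lower, with a median of −0.33 and no unadjusted limma p under 0.05. Mid1ip1 read 3.72 and 2.34 on the STZ arrays, against 2.93 and 3.20 on the sham arrays. Unlike Thrsp, its groups overlapped, with a change of −0.26 (limma, adjusted p = 0.986), and the difference between the genes was not tested. Stk11, the kinase upstream of AMPK, changed by −1.28. It was dim, at −4.92 and −5.50 on the STZ arrays, against −4.74 and −3.58 on the sham arrays, so this change is less certain. The AMPK subunit genes Prkaa1, Prkaa2, Prkag1 and Prkab1 changed by −0.13, −0.62, −0.40 and 0.067.

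In the list of the insulin signal to lipogenesis, 6 of 10 tested genes were lower, with a median of −0.16. Slc2a1, the insulin-independent glucose transporter GLUT1, read 5.82 and 4.19 on the STZ arrays, against 3.35 and 3.24 on the sham arrays. Both STZ arrays were higher, with a change of 1.48 (limma, adjusted p = 0.460, with an unadjusted p of 0.0496). Each p refers to the change before the median of 0.23 is taken off. Slc2a4, the insulin-responsive transporter GLUT4, read 1.02 and 1.22 on the STZ arrays, against 1.43 and 2.12 on the sham arrays. Its groups did not overlap, and its change of −0.89 had an adjusted limma p of 0.636. Pde3b, a phosphodiesterase through which insulin restrains lipolysis, changed by −0.84, and Pklr, the pyruvate kinase of liver, by 0.99, though its probe was well above background in 6 of the 8 samples and its value is uncertain.

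**Figure D4:**
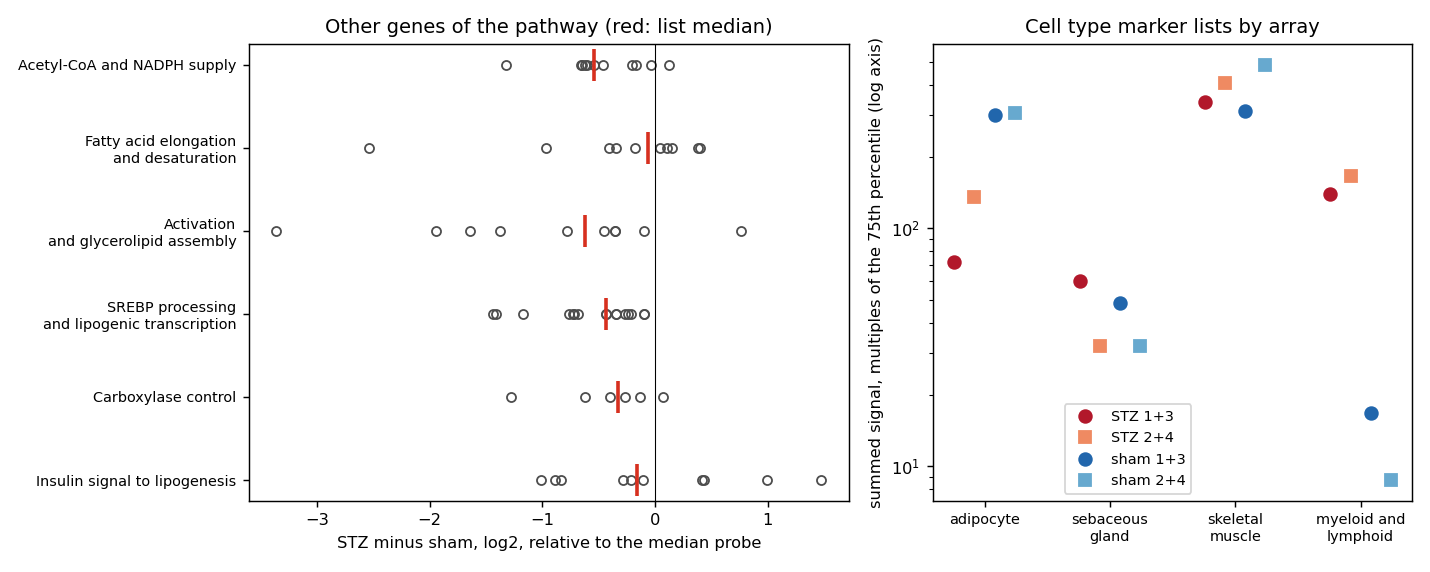
Left, the relative log2 change (STZ minus sham) of each tested gene in 6 pathway lists, with a red mark at each list's median, between −0.62 and −0.064. Right, the summed signal of 4 cell type marker lists on each array (log axis, multiples of the 75th percentile), with the STZ arrays left of the sham arrays in each list; adipocyte sums are lower and myeloid and lymphoid sums higher on both STZ arrays.

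Genes with a pattern over the 4 arrays like that of Thrsp or Scd, the 2 genes that spanned at least 2 log2 units, were sought among 12586 genes by the root mean square difference of values centred on their own mean. For Thrsp the nearest were Upk1b (0.141), Tdo2 (0.165) and Slc7a10 (0.177). Upk1b, a uroplakin, read −0.89 and −0.69 on the STZ arrays, against 2.50 and 2.70 on the sham arrays. Scd had Gna13 (0.0928), Picalm (0.0952) and Sh3pxd2a (0.117) nearest. Picalm, a clathrin assembly protein, read 0.71 and −1.29 on the STZ arrays, against −0.84 and −0.19 on the sham arrays, highest on the first STZ array as Scd was. With 4 arrays, many genes can lie this close.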

How the data were processed

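Per the labels' protocols, amplified total RNA carrying the dye Cy3 was read on Agilent arrays of 1 colour. The deposited intensity used for every result is the processed signal that Agilent Feature Extraction 11.0.1.1 wrote after subtracting background, per the file headers (the submitters' processing notes name 11.0.0.1), with no scaling across arrays. The deposited median spot and background intensities are uncorrected. The well-above-background and outlier flags are other values, 0 or 1 per spot, per the file headers.

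Processed signals were taken to log2 and the 75th percentile of the 42136 noncontrol spots was subtracted per sample. Spots of a probe were averaged without outlier spots, and both scans of an array were averaged. Probes with most of their spots well above background in at least 4 of 8 samples were tested with lmFit and eBayes (limma 3.58.1, R 4.3.3, two-sided), with Benjamini-Hochberg adjustment over all 21527. The test drew each variance towards a common one, with 3 prior and 2 residual degrees of freedom. A gene was represented by its probe with the highest mean signal. Precision is limited by the small number of arrays. Probes were named by unversioned accession through RefSeq's GRCr8 table, which held 14274 of 15321 coding accessions.

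The genes and lists were chosen with earlier results of these data known. All probes of the 10 genes were to be named, then the 4 genes of each pathway list with the smallest p (all of a list with 6 genes), the 3 nearest patterns, and the brightest markers of a list that moved with a gene. One gene of the supply list is not reported here. Elovl3 and Dgat2 stand in both a pathway and the sebaceous list, and Slc2a4 and Mid1ip1 in 2 lists each. Scd2 (a paralogue of Scd), Adipoq, Cidec, Elovl3, Awat1, Soat1, Mc5r, Fa2h, Lum, Ivl, Krt15, Krt14, Krt1, Mb and Alb were named after their values were seen. So were Lep, Retn and Ttr. Alternatives changed the scaling, background correction, filter, scans used, outlier spots, arrays left out and the array number as a block. Normexp (offset 50) used the median spot signal. The fit was tested on simulated data. Replicate numbers were not taken as pairs, since the differences between the 2 arrays of STZ and those of sham correlated at −0.20 over 21509 probes.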

Additional observations from a re-analysis of the deposited data

How the results depend on the processing

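No probe was called in the limma fit at an adjusted p under 0.05. Centring arrays on the median called 510 probes (216 lower, 294 higher, Thrsp among them), and treating the 8 scans as separate arrays called 5244 (Thrsp and Me1 among them), by its construction from rescans counted as replicates. Leaving out 1 array at a time gave 0 to 48 calls, a median change of the 7 genes of −1.17 to 0.21, and 2 to 7 of them lower. The 48 calls, −1.17 and 7 came without STZ replicates 1 and 3, and 0.21 and 2 without STZ replicates 2 and 4. With an array left out, the lone array of its group is assumed to vary like the other group. Over the 16 alternatives Thrsp stayed at −3.61 to −3.06 and Me1 at −2.05 to −0.58. Thrsp had an adjusted limma p of 0.0638 to 0.979 with 1 array left out, and Me1 of 0.0994 to 0.997. The other genes changed sign with the array left out, over −1.49 to 0.42 for Acaca, −0.87 to 1.41 for Acacb, −0.96 to 0.15 for Acly, −0.98 to 0.21 for Elovl6 and −1.17 to 1.29 for Scd. Acacb was −0.037 after quantile normalization, and the cause was not tested. Scd was −0.10 without the filter, where the median taken off was 0.37 in place of 0.23. Precision is limited by 2 arrays per group, and all 8 probes of the 7 genes were above background.

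The split of unadjusted calls was 761 lower and 1575 higher in the 75th percentile scaling, 1150 and 1219 after quantile normalization, and 1325 and 1176 after normexp with quantile normalization. The replicate block called 0 probes, with 590 lower and 1582 higher unadjusted and a median of −0.42 over the 7 genes. That median shrank to −0.087 with quantile normalization, and to −0.079 when normexp came before it. It changed no call among the 7. The crossed pairing, chosen after the data were seen, also called 0 probes, with 763 lower and 2084 higher unadjusted.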

Other observations

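Other cell type lists also differed between the groups. Over all tested probes, 3.54% were lower and 7.32% higher at an unadjusted limma p under 0.05, and none passed after adjustment. All 7 tested hair follicle markers of 10 listed were lower in STZ skin, each at an unadjusted limma p under 0.05, with a median change of −6.35, and summed to 90.5 and 3.73 on the STZ arrays, against 567.3 and 557.2 on the sham arrays. All 7 tested myeloid and lymphoid markers were higher, each at an unadjusted limma p under 0.05, with a median of 2.91 and sums of 139.5 and 166.2 on the STZ arrays, against 16.7 and 8.75 on the sham arrays. All 5 tested fibroblast markers were higher, 1 of them (Lum, a matrix proteoglycan) at an unadjusted limma p under 0.05, with a median of 0.79. The 4 tested keratinocyte markers had a median of −0.037, with Ivl at −1.89, Krt15 at −0.81, Krt14 at 0.74 and Krt1 at 1.33. Among 6 tested muscle markers the median was −0.55 with 5 lower, while Mb, the myoglobin gene, was higher by 1.20 at an unadjusted limma p under 0.05. That p refers to the change before the median of 0.23 is taken off. The median of the 2 tested liver markers was −3.19, with Alb at −5.24 and Ttr at −1.14, where the groups overlapped for Ttr. Ucp1, the brown fat uncoupler, changed by 0.76, with overlapping groups.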
